A study of Mus musculus with 6 samples.

Results

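The DNA replication genes are a set of 43 genes whose products copy the genome in S phase or prepare for it. They were taken by symbol, and all 43 were found in each of the 6 count tables, among 20571 genes shared by the tables. The levels come from bulk RNA sequencing of mouse liver progenitor-like cells (LPCs), proliferating cells grown out of adult liver, in 3 groups with 2 libraries each. All mice were C57BL/6 and 6 to 8 weeks old, and every culture was fed Transition and Expansion Medium (TEM). The Hep_LPCs group started as hepatocytes from ROSA26tdTomato mice that carried AAV8-TBG-Cre, a virus in which a hepatocyte promoter drives Cre. NPC_LPCs started as the non-parenchymal fraction of liver, that is without hepatocytes, from AlbCreERT/R26GFP mice, in which the albumin promoter drives an inducible Cre. Bec_LPCs grew out of pieces of intrahepatic bile ducts from WT mice; the pieces were digested, plated in matrigel, passaged 1 or 2 times and sorted, with Epcam+ cells named in the series' design.

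Replication starts when the origin recognition complex, with Cdc6 and Cdt1, loads the MCM helicase onto DNA in G1. Cdc45 and GINS then turn that helicase on, primase and polymerase alpha lay down primers, polymerases delta and epsilon extend them on the Pcna clamp, and Fen1 and Lig1 join the pieces of the lagging strand. Most of these genes are known targets of E2F transcription factors, which are freed when cyclin-dependent kinases phosphorylate the retinoblastoma protein. Hepatocytes of a resting adult liver rarely enter S phase, while regenerating liver and cultured progenitor-like cells do.

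Total counts ran from 17575998 to 22985844 per library, and a member had 77 to 8302 reads in a library (median 746.5). The chi-square between the 2 libraries of a group, over its degrees of freedom, was 111 for NPC_LPCs, 92.5 for Hep_LPCs and 5.52 for Bec_LPCs. The groups thus did not share 1 spread. Both comparisons of Bec_LPCs below come from a fit of all 6 libraries that assumes 1, and their p-values and SEs rest on it. Hep_LPCs replicate 2 stood apart by the Y-linked gene Ddx3y, at 0.0593 CPM against 60.4 to 102 CPM in the other 5 libraries. Nothing in the labels tells if a group's replicates were separate animals or cultures. The p-values rest on the spread between these samples, which may be technical in NPC_LPCs and Bec_LPCs. The Hep_LPCs replicates differed in a Y-linked gene, so sex may differ between them, which was not tested. The albumin gene Alb, which defines hepatocytes, was at 0.115 to 2.4 CPM in all libraries, and Epcam was at 59.0 and 65.7 CPM in Bec_LPCs and at most 1.84 CPM elsewhere. The leukocyte and endothelial marker lists summed to at most 7.55 CPM in any library. The 6 stellate cell and fibroblast markers summed to 186 and 223 CPM in Bec_LPCs, against 3.64 and 17.1 CPM in NPC_LPCs and 5.15 and 3.32 CPM in Hep_LPCs. Acta2, a marker of contractile fibroblasts, was at 77.6 and 94.1 CPM in Bec_LPCs, at 0 and 2.34 CPM in NPC_LPCs and at 0 in both Hep_LPCs libraries. The 6 hepatocyte markers summed to 28.9 and 51.4 CPM in NPC_LPCs, 257 and 265 CPM in Hep_LPCs and 128 and 105 CPM in Bec_LPCs, nearly all of it from the transcription factor gene Hnf4a, with Cyp3a11 at 0 in all libraries. The 8 biliary and progenitor markers, led by Spp1, summed to 3739 to 11090.5 CPM, and the NPC_LPCs and Hep_LPCs libraries overlapped there. The fibroblast list thus moved with each comparison of Bec_LPCs and the hepatocyte list with all 3 comparisons, and their part in the results was not tested.

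Because the genes share E2F as a known regulator, the promoter windows that hold an E2F word are shown first. RefSeq windows on GRCm38.p6, from 250 bases before to 50 bases after a start site, were found for 35 of the 43 genes (40 windows). None was listed for Mcm4, Gins1, Gins2, Gins4, Prim2, Pole, Rfc2 and Ccne2. The words TTTCCCGC, TTTCGCGC, TTTGGCGC and TTTGCCGC were searched on both strands, and at least 1 of them was in 14 of the 40 windows (35.0%) and in 2.26% of all 32851 promoter windows of the same length. The shorter CCAAT box was in 57.5% of the members' windows and 37.4% of all windows, and TATAAA in 5% and 13.6%. The windows of Mcm3 (chr1:20820263-20820562, minus strand), Mcm5 (chr8:75109259-75109558, plus strand), Mcm6 (chr1:128359656-128359955, minus strand) and Mcm7 (chr5:138171834-138172133, minus strand) are printed since each encodes a helicase subunit and holds more than 1 word. The window of Cdt1 (chr8:122567765-122568064, plus strand), the helicase loading factor, is printed for its word just after the start site. Capitals mark the E2F words on either strand, and the sequences read 5′ to 3′ on the gene's strand.
Mcm3: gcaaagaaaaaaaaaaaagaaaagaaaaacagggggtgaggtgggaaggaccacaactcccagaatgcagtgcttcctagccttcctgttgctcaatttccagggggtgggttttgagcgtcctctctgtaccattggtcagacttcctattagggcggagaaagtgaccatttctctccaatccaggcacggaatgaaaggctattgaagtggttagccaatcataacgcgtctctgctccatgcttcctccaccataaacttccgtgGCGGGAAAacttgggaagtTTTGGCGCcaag
Mcm5: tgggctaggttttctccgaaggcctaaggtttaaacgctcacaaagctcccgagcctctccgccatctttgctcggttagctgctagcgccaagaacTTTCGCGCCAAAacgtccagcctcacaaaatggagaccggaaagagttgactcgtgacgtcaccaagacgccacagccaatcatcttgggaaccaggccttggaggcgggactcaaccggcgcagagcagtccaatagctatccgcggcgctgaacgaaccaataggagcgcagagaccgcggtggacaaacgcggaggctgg
Mcm6: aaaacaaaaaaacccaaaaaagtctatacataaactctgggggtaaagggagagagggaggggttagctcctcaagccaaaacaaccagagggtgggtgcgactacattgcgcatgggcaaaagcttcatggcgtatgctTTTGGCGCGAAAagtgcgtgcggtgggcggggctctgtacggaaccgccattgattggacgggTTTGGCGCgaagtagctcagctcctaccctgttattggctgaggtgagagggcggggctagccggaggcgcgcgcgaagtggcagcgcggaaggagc
Mcm7: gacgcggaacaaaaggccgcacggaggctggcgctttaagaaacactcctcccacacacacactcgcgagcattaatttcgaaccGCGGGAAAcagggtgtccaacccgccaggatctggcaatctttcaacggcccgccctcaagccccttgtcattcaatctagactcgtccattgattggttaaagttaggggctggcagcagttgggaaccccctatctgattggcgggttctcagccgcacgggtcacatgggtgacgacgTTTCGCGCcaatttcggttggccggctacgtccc
Cdt1: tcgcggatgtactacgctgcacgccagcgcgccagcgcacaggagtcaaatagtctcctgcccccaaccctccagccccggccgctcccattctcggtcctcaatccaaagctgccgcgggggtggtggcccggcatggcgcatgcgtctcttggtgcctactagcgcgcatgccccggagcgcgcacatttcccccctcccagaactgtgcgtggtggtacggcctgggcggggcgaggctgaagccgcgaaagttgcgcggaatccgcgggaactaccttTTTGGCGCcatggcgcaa
In Mcm5 and Mcm6 a pair of words overlaps on opposite strands, and the last base of the downstream word of Mcm7 is also the first base of a CCAAT match. A match describes letters only and is not evidence of binding. The 14 genes with an E2F word had a median log2 fold change of -1.23 between Bec_LPCs and Hep_LPCs, and the 21 with a window but no word had -1.15.

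Levels below are CPM on library sizes scaled by TMM over all 6 libraries, that is counts scaled to a common depth, and each pair of values is in the order replicate 1, replicate 2. Summed over the 43 genes, the level was 1907 and 2877 CPM in NPC_LPCs, 4615 and 3307 CPM in Hep_LPCs, and 1571 and 1693 CPM in Bec_LPCs. The group means were thus 2392 ± 686 CPM, 3961 ± 925 CPM and 1632 ± 86.4 CPM (SD, n = 2 each), and the libraries of the 3 groups did not overlap. In bulk RNA, fewer cells in S phase and less of these RNAs per cell cannot be told apart. By group mean, 35 of the 43 genes stood in the order Hep_LPCs, NPC_LPCs, Bec_LPCs from high to low. Another 6, the clamp loader genes Rfc2, Rfc3, Rfc4 and Rfc5 and the single-strand binding genes Rpa1 and Rpa2, were highest in Hep_LPCs with NPC_LPCs last. Gins3 and E2f1 were highest in NPC_LPCs.

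**Figure D1:**
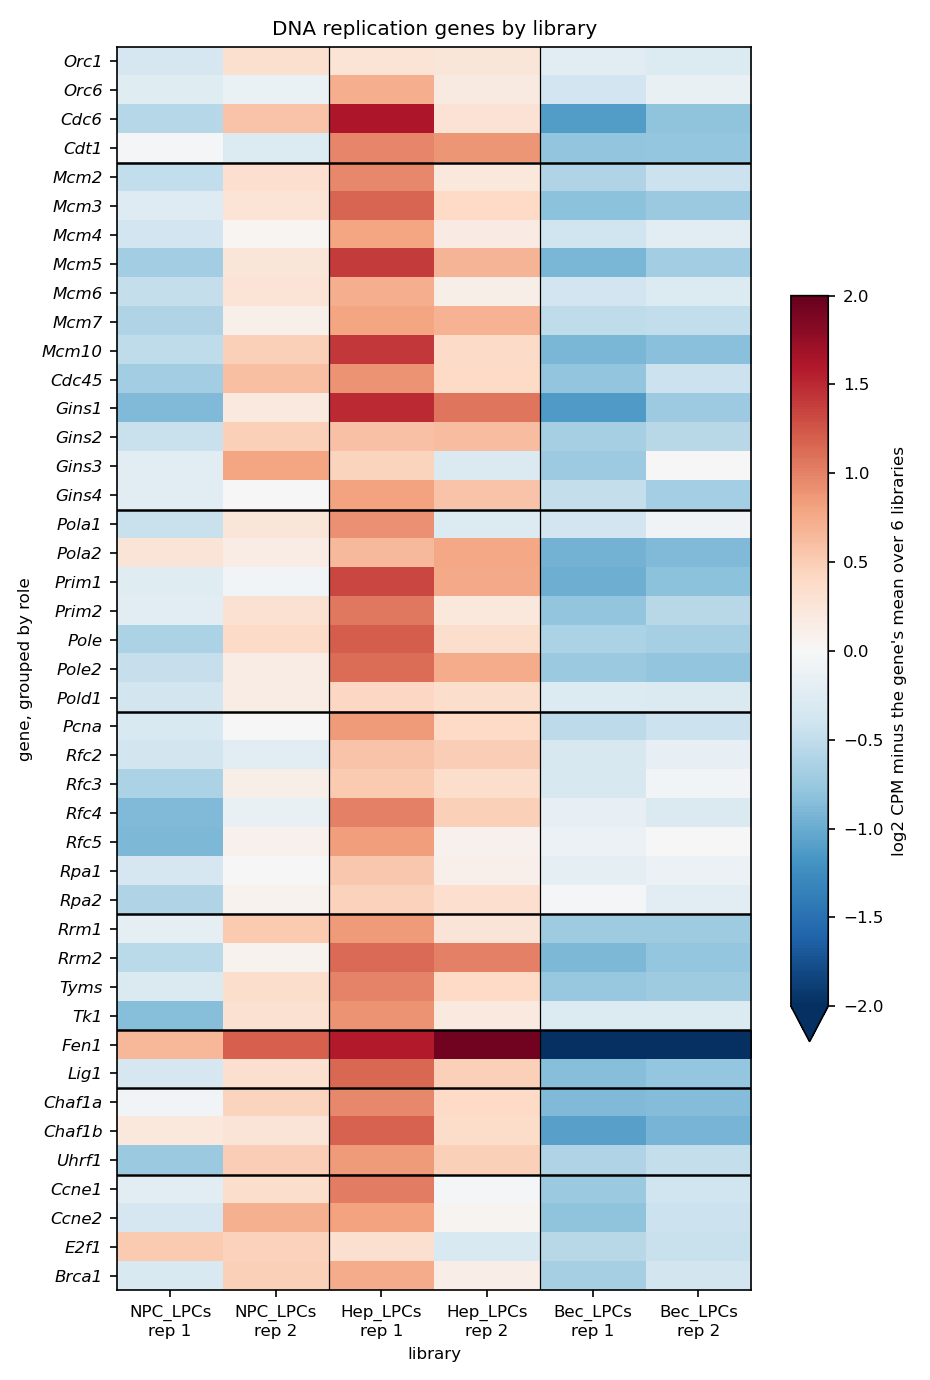
Each row is a gene and each column a library, and the colour is the log2 CPM minus that gene's mean over the 6 libraries, with black lines between roles (from the top: helicase loading, helicase, polymerases, clamp and clamp loader, nucleotide supply, lagging strand, chromatin, S phase entry). Red is high and blue low: Hep_LPCs replicate 1 is the reddest column for most genes, both Bec_LPCs columns are blue for most, and Fen1 lies beyond the end of the colour scale in Bec_LPCs.

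The replicates of NPC_LPCs and of Hep_LPCs differed in these genes as a block. In NPC_LPCs, replicate 2 was above replicate 1 in 40 of 43 genes, with a median ratio of 1.58 and a range from 0.848 (Cdt1) to 2.47 (Cdc45), while the median over 12472 genes was 1.00. In Hep_LPCs, replicate 1 was above replicate 2 in 40 of 43 genes, with a median ratio of 1.5, from 0.784 (Fen1) to 2.50 (Cdc6), against 0.993 over all genes. The Bec_LPCs replicates lay closer, with a median ratio of 1.08 and 1 gene, Gins3, past 1.5-fold. The spread between replicates was therefore about as large for these genes as the median distance between NPC_LPCs and Hep_LPCs given below. The mitosis genes fixed for comparison, 20 in number, differed between replicates in the same direction, with sums of 1709 and 2916 CPM in NPC_LPCs, 4669 and 2834 CPM in Hep_LPCs and 959 and 1156 CPM in Bec_LPCs.

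Hep_LPCs were first set beside NPC_LPCs, the pair named in the growth protocol as the purpose of the sequencing, which also differs in mouse line and virus. No replication gene was called different between them, a call being an adjusted p under 0.05 in edgeR's quasi-likelihood test, although 41 of the 43 log2 fold changes were above 0. Calls of genes are by this test unless another tool is named. In this fit 0.354% of 12159 genes were called higher in Hep_LPCs. The median log2 fold change was 0.64 over the members, 1.56-fold, and -0.00 over all genes. It moved to 0.36 without Hep_LPCs replicate 1, 0.91 without Hep_LPCs replicate 2, 0.41 without NPC_LPCs replicate 1 and 0.99 without NPC_LPCs replicate 2. At an unadjusted p under 0.05, 12 of the 43 (27.9%) were higher and none lower, while 10.5% of all genes were higher at that p. DESeq2's Wald test called 4 of 43 higher, Cdt1, Gins1, Prim1 and Rrm2, against 5.83% of all genes, and limma-voom called 0 against 0.0164%. Both Hep_LPCs libraries were above both NPC_LPCs libraries in 25 genes, and such a gap was present in 28% of all genes. With all 6 libraries in the fit, which share 1 estimate of the spread, 4 of 43 were called higher (Cdt1, Prim1, Rfc2 and Rrm2), against 4.82% of all genes.

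Bec_LPCs against NPC_LPCs gave 3 of 43 genes called lower and none higher: Pola2, Chaf1b and Fen1. In all, 6.44% of 12867 genes were called lower in Bec_LPCs, so the members' 6.98% lay near the background. At an unadjusted p under 0.05, 12 members were lower, as were 16.3% of all genes. DESeq2 called 7 members lower and limma-voom 5, where they called 12.9% and 6.85% of all genes lower. The median over the members was -0.64, against 0.01 over all genes. Both NPC_LPCs libraries were above both Bec_LPCs libraries in 23 members and in 33% of all genes. Pola2 and Chaf1b lost their calls without either Bec_LPCs library, Chaf1b also without either NPC_LPCs library, without the TMM scaling and with the genes limited to those of low exonic overlap. The members' median rested on the NPC_LPCs library chosen, at -0.96 without NPC_LPCs replicate 1 and -0.17 without replicate 2. With library size alone, 61.3% of all calls were higher, against 43.1% with TMM, and the median of all genes moved to 0.17.

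Against Hep_LPCs, by contrast, Bec_LPCs had 23 of the 43 replication genes called lower (53.5%) and none higher, where 17.2% of all 12867 genes were called lower. At an unadjusted p under 0.05, 33 members were lower, as were 23.6% of all genes. DESeq2 called 32 members lower and limma-voom the same 23 as edgeR, where they called 21.7% and 17.9% of all genes lower. All 43 log2 fold changes were below 0, from -0.43 (Gins3) to -4.45 (Fen1), with a median of -1.21, 2.32-fold, against 0.03 over all genes. Both Hep_LPCs libraries were above both Bec_LPCs libraries in 41 members, the exceptions being Gins3 and Pola1, and in 36.8% of all genes. The comparisons with NPC_LPCs and Hep_LPCs share the Bec_LPCs libraries, and source tissue, genotype, sort and the making of the tables all differ with them and cannot be told apart. Nor can the matrigel plating and the passages, which are described above for Bec_LPCs alone. The number of calls rested on having both Bec_LPCs libraries, while the size of the difference barely moved without either one. These 2 libraries lay close, with a median ratio of 1.08 over the members, so leaving out either could hardly move the size. Fen1 and Pola2 alone were called without replicate 1 and without replicate 2, when 2.13% and 2.09% of all genes were called lower, while all 43 members stayed below 0 with medians of -1.16 and -1.27. Without Hep_LPCs replicate 1, 13 members were called (13.5% of all genes), 42 of 43 stayed below 0 and the median was -0.97; Cdc6, Gins1, Gins2, Mcm5, Mcm7, Mcm10, Pole, Prim2, Rrm1 and Tyms lost their calls. Without Hep_LPCs replicate 2, 27 were called (17.1% of all genes), Gins2 lost its call and the median was -1.41. With library size alone 60.9% of all calls were higher, against 48.3% with TMM, the median of all genes was 0.21, and 21 members were called lower (13.5% of all genes).

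**Figure D2:**
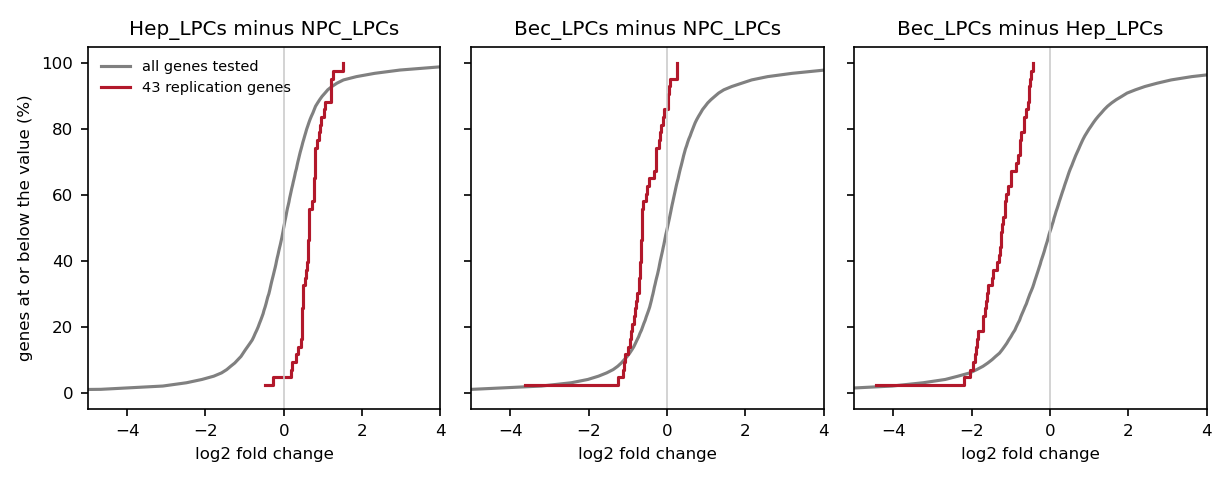
Each panel is 1 comparison, the horizontal axis is the log2 fold change and the vertical axis the percentage of genes at or below it, with all genes tested in grey and the 43 replication genes in red. The red curve lies to the right of the grey one over most of the first panel (medians 0.64 and -0.00) and to the left of it in the others (-0.64 and 0.01, then -1.21 and 0.03), with Fen1 alone at the far left.

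**Figure D3:**
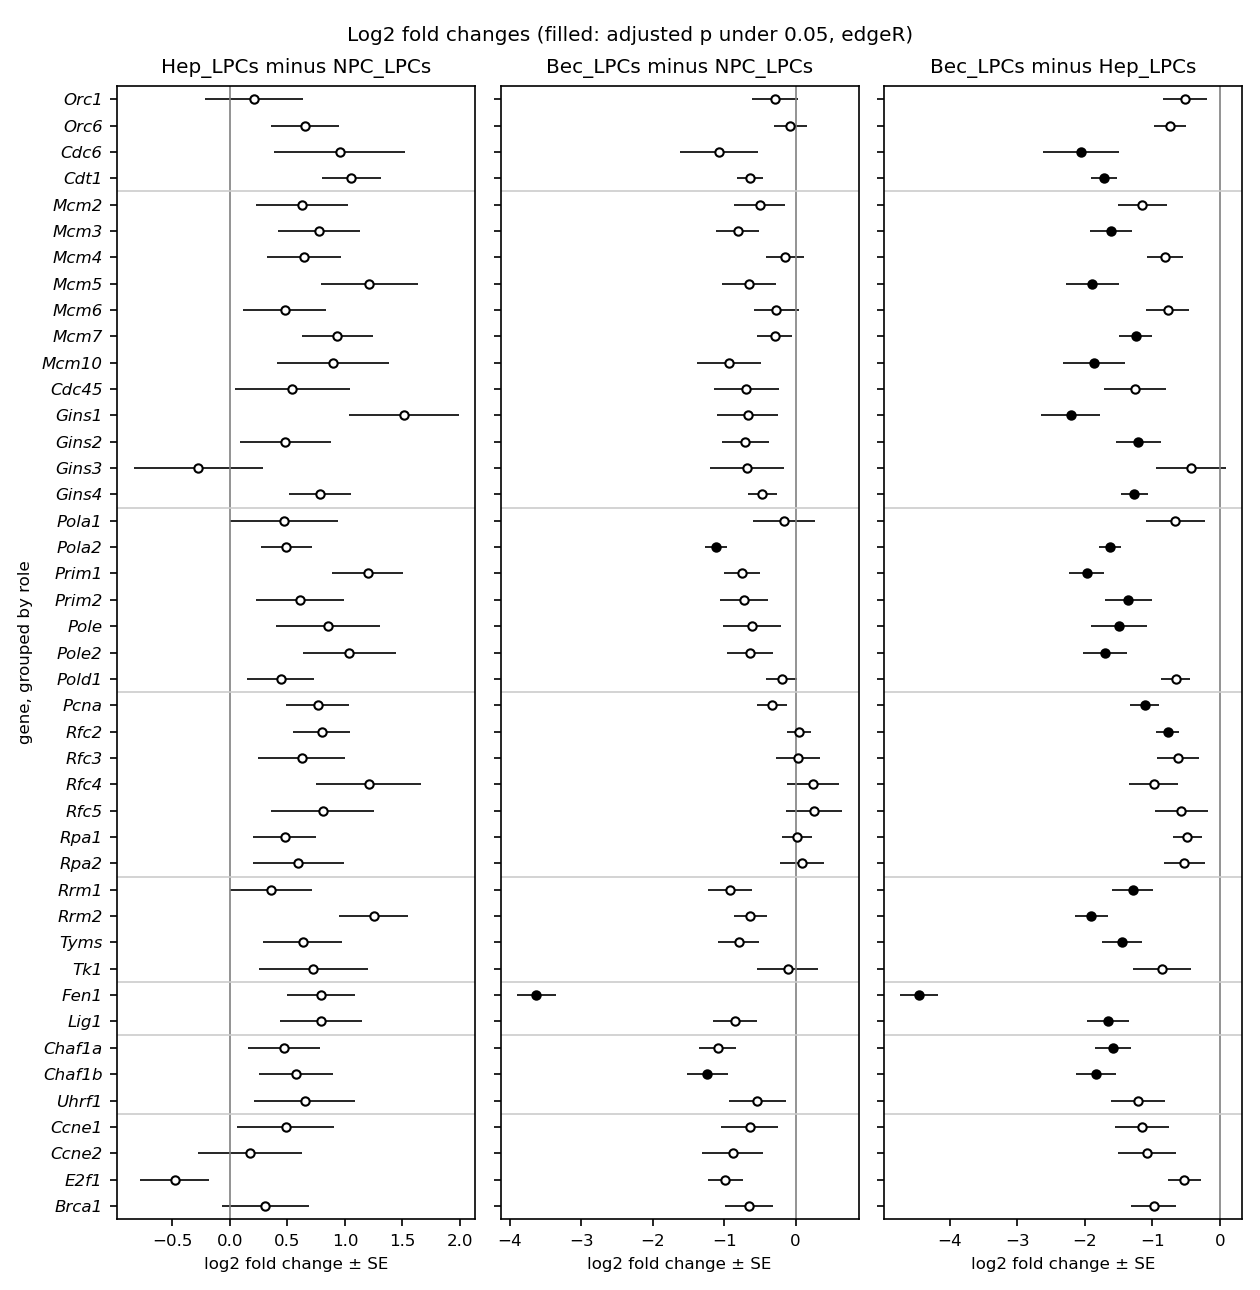
Each row is a gene, and each panel gives its log2 fold change with its SE in 1 comparison; filled points passed an adjusted p under 0.05 in edgeR. No point is filled for Hep_LPCs minus NPC_LPCs, 3 are filled for Bec_LPCs minus NPC_LPCs and 23 for Bec_LPCs minus Hep_LPCs, and the Rfc and Rpa rows lie near 0 in the middle panel.

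The factors that recognise origins and load the helicase gave 2 calls of 4, Cdc6 and Cdt1, both lower in Bec_LPCs than in Hep_LPCs. Cdt1, which brings the MCM ring to origins and is destroyed once S phase begins (chromosome 8, 122568015 to 122573554 in mm10), was at 26.9 and 22.8 CPM in NPC_LPCs, 54.1 and 50.6 CPM in Hep_LPCs, and 15.8 and 16.0 CPM in Bec_LPCs. The groups did not overlap, and Cdt1 was 1 of 3 members in which NPC_LPCs replicate 2 was not the higher replicate. Its log2 fold change from Hep_LPCs to Bec_LPCs was -1.72 ± 0.19 (SE), with an adjusted p = 0.00367 in edgeR. Cdc6, the loading ATPase, had the widest range of group means in this role as a ratio, with 14.7 and 32.3 CPM in NPC_LPCs, 66.4 and 26.5 CPM in Hep_LPCs and 10.04 and 12.3 CPM in Bec_LPCs. Hep_LPCs replicate 1 alone was far above the rest, NPC_LPCs and Hep_LPCs overlapped, and the call against Bec_LPCs (-2.05 ± 0.56, adjusted p = 0.0373 by edgeR) was lost without Hep_LPCs replicate 1. Orc6, a subunit of the origin recognition complex, had the highest mean CPM over the 6 libraries in this role, though not in Hep_LPCs alone, at 30.5 and 32.8, 59.99 and 41.0, and 27.7 and 32.5 CPM in the same order. Its adjusted p was 0.0573 between Bec_LPCs and Hep_LPCs. Orc1, the largest subunit of that complex, ran from 6.81 to 10.7 CPM over the 6 libraries and was not called.

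Of the 12 helicase genes, 7 were called lower in Bec_LPCs than in Hep_LPCs, namely Mcm3, Mcm5, Mcm7, Mcm10, Gins1, Gins2 and Gins4. All 12 log2 fold changes were below 0, with a median of -1.26 over the role. Mcm7, an MCM ring subunit (chromosome 5, 138164583 to 138172422), was at 98.7 and 159 CPM in NPC_LPCs, 259 and 242 CPM in Hep_LPCs and 105 and 106 CPM in Bec_LPCs. Bec_LPCs thus lay inside the range of NPC_LPCs, and Hep_LPCs above both (-1.25 ± 0.25 from Hep_LPCs to Bec_LPCs, adjusted p = 0.0163 by edgeR). Gins1, a GINS subunit, had the widest range of group means as a ratio, with 4.73 and 10.01 CPM, 24.6 and 18.3 CPM, and 4.01 and 5.27 CPM in NPC_LPCs, Hep_LPCs and Bec_LPCs, and changed by -2.21 ± 0.44 from Hep_LPCs to Bec_LPCs (adjusted p = 0.0161). Gins4, of the same complex, was at 23.6 and 27.1, 48.1 and 40.5, and 19.8 and 17.1 CPM, with no overlap between groups (-1.27 ± 0.20, adjusted p = 0.00951). Mcm5 and Mcm3, both with E2F words in the windows printed above, changed by -1.89 ± 0.39 and -1.61 ± 0.31, while Mcm6, with 3 words, was not called at -0.77 ± 0.32 (adjusted p = 0.107). Mcm2 and Mcm4 were not called either, with adjusted p = 0.0548 and 0.0628 by edgeR. Cdc45, which joins the ring to GINS, was at 10.5 and 25.8, 31.5 and 22.4, and 9.83 and 12.6 CPM, so that NPC_LPCs spanned values from near the Bec_LPCs level to inside the Hep_LPCs range. Gins3 was low throughout, at 3.5 to 9.96 CPM, and its groups overlapped. Gins2 has 67.3% of its exonic bases inside Gse1 on the other strand, so its counts are uncertain.

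Polymerase and primase genes had 5 of 7 members called lower in Bec_LPCs than in Hep_LPCs, Pola2, Prim1, Prim2, Pole and Pole2, with a median of -1.49. Pola2, the accessory subunit of polymerase alpha (chromosome 19, 5940542 to 5964202), was at 66.7 and 61.5 CPM in NPC_LPCs, 87.4 and 95.3 CPM in Hep_LPCs and 28.9 and 30.3 CPM in Bec_LPCs. The groups were well apart, and Pola2 fell both against Hep_LPCs (-1.63 ± 0.16, adjusted p = 0.00281) and against NPC_LPCs (-1.11 ± 0.16, adjusted p = 0.0155, edgeR for both). Prim1, the catalytic subunit of primase, was at 22.6 and 25.9, 67.7 and 45.3, and 13.6 and 15.2 CPM in the 3 groups, with a change of -1.97 ± 0.26 from Hep_LPCs to Bec_LPCs (adjusted p = 0.00567). Pole, the catalytic subunit of the leading strand polymerase epsilon, was at 47.2 and 94.8, 169 and 92.7, and 46.8 and 46.0 CPM. NPC_LPCs replicate 2 was above Hep_LPCs replicate 2 there, while NPC_LPCs replicate 1 was level with Bec_LPCs (-1.49 ± 0.42 from Hep_LPCs to Bec_LPCs, adjusted p = 0.0401). Pola1 and Pold1, the catalytic subunits of polymerases alpha and delta, gave no call by edgeR's test in any comparison; DESeq2 called Pold1, not Pola1, lower in Bec_LPCs than in Hep_LPCs.

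Genes of the clamp, its loader and the single-strand binding proteins lay nearest to the NPC_LPCs level in Bec_LPCs, with a median log2 fold change of 0.05 and 6 of 7 values above 0, while the median of each other role was below 0. Without NPC_LPCs replicate 1, all 43 members, these 7 included, were below 0 in that comparison. None of the 7 was called against NPC_LPCs, and the difference between roles was not tested. Against Hep_LPCs, 2 of 7 were called lower in Bec_LPCs, Pcna and Rfc2, and all 7 values were below 0. Pcna, the sliding clamp (chromosome 2, 132249162 to 132253314), was at 114 and 140.2 CPM in NPC_LPCs, 253 and 186 CPM in Hep_LPCs and 98.0 and 105 CPM in Bec_LPCs, with no overlap (-1.12 ± 0.21 from Hep_LPCs to Bec_LPCs, adjusted p = 0.0146 by edgeR). Rfc2, a loader subunit, was at 33.7 and 37.8, 64.9 and 61.3, and 34.8 and 39.0 CPM, the Bec_LPCs values overlapping those of NPC_LPCs. Rfc4, with the widest range of group means in this role as a ratio, was at 4.73 and 7.83, 17.4 and 12.1, and 7.81 and 7.12 CPM, and was not called (adjusted p = 0.0833 against Hep_LPCs). Rpa1, which coats single-stranded DNA and is also used in repair, was at 85.9 and 108 CPM in NPC_LPCs and 95.6 and 100.4 CPM in Bec_LPCs, within the spread of the NPC_LPCs replicates.

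Nucleotide supply genes gave 3 of 4 calls in Bec_LPCs against Hep_LPCs, Rrm1, Rrm2 and Tyms. Rrm2, the subunit of ribonucleotide reductase that limits deoxynucleotide supply in S phase (chromosome 12, 24708241 to 24714146), was at 151 and 232 CPM in NPC_LPCs, 486 and 443 CPM in Hep_LPCs and 118 and 129 CPM in Bec_LPCs. By group mean CPM, which is not scaled for gene length, it was the highest member in Hep_LPCs, while Rrm1 was in NPC_LPCs and Bec_LPCs. Per length, Rrm2 was above Rrm1 in NPC_LPCs too, as given below, and Bec_LPCs had no such values. For Rrm2 the groups did not overlap, with -1.91 ± 0.24 from Hep_LPCs to Bec_LPCs (adjusted p = 0.00533 by edgeR). From NPC_LPCs to Hep_LPCs Rrm2 changed by 1.25 ± 0.30, with an adjusted p = 0.104 by edgeR and a call by DESeq2. Rrm1, the large subunit of the same enzyme, was at 182 and 299.6, 377 and 250.4, and 128 and 128 CPM, and here NPC_LPCs and Hep_LPCs overlapped. Tyms, which makes thymidylate, changed by -1.46 ± 0.30 (adjusted p = 0.0172), and the salvage kinase gene Tk1 was not called (-0.86 ± 0.43, adjusted p = 0.162).

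**Figure D4:**
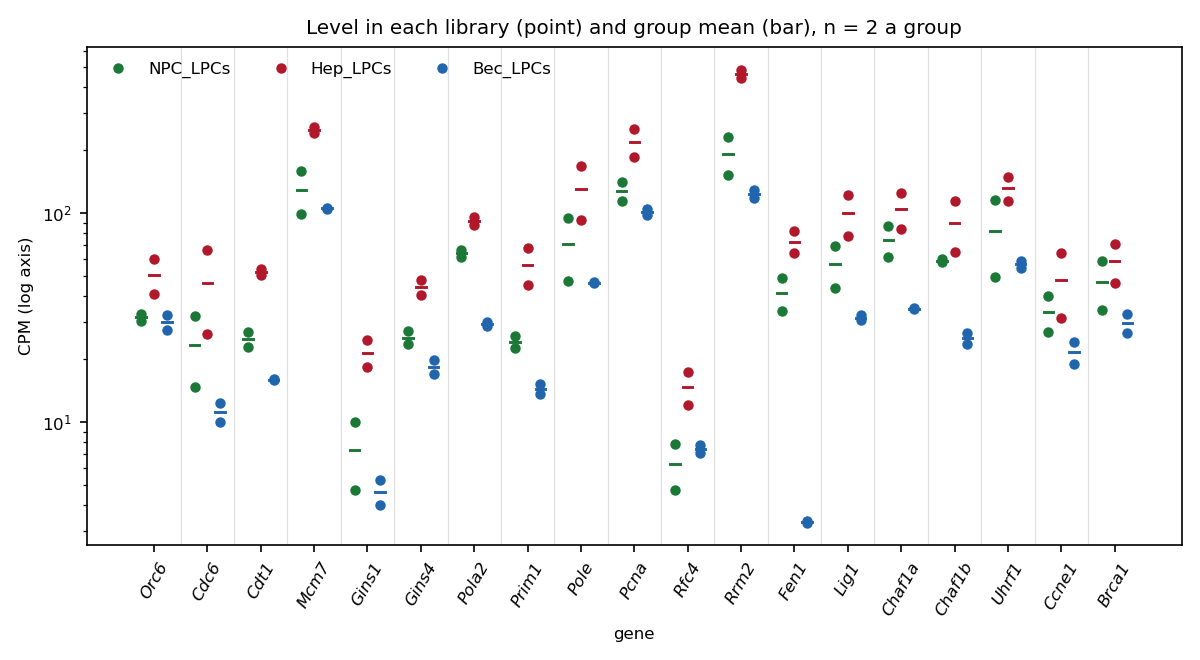
Points are the CPM of the 2 libraries of each group on a log axis and bars are the group means, for the 19 genes named by the rule given under the processing. Rrm2 is highest, at 118 to 486 CPM, Hep_LPCs and Bec_LPCs points are apart in each gene shown, and the Bec_LPCs points of Fen1, at 3.38 and 3.30 CPM, lie far below its other points.

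Lagging strand genes were both called lower in Bec_LPCs than in Hep_LPCs. Lig1, the ligase that seals Okazaki fragments, was at 44.0 and 69.5, 122 and 77.4, and 30.7 and 32.6 CPM (-1.66 ± 0.32, adjusted p = 0.0145 by edgeR). Fen1, the flap nuclease that trims those fragments (chromosome 19, 10199132 to 10204169), was at 34.0 and 48.9 CPM in NPC_LPCs, 64.1 and 81.8 CPM in Hep_LPCs and 3.38 and 3.30 CPM in Bec_LPCs. Its log2 fold change was -4.45 ± 0.28 against Hep_LPCs and -3.63 ± 0.27 against NPC_LPCs (adjusted p = 0.00104 and 0.00278 by edgeR), by far the largest of the set. However, 84.2% of the exonic bases of Fen1 lie inside annotated genes on the opposite strand, mostly the antisense gene Gm10143. Genes with over 75% of their exonic bases inside another gene had a median of -5.69 between Bec_LPCs and Hep_LPCs (79 genes) and -5.83 against NPC_LPCs, but 0.06 between Hep_LPCs and NPC_LPCs (76 genes). The medians of genes with at most 25% overlap were 0.06, 0.03 and -0.01. Between Bec_LPCs and Hep_LPCs the median was -0.41 at 25% to 50% overlap and -1.23 at 50% to 75%. Gins2 and Chaf1a, at -1.21 and -1.58, have overlaps in that last range, so the same limit holds for their calls. The low Fen1 level therefore moved with how a gene overlaps others in the Bec_LPCs tables, and a difference in cells and one in counting cannot be told apart for it. Limited to genes with at most 25% overlap, which leaves out Fen1, Gins2 and Chaf1a, 20 of 40 members were still called lower against Hep_LPCs, where 16.2% of all genes were. Against NPC_LPCs 1 of 40, Pola2, was, where 3.96% of all genes were.

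Of the 3 genes of chromatin assembly and methylation, Chaf1a and Chaf1b were called lower in Bec_LPCs than in Hep_LPCs, and all 3 values were below 0. Chaf1b, a subunit of the factor that deposits histones on new DNA (chromosome 16, 93883901 to 93906115), was at 58.4 and 60.2 CPM in NPC_LPCs, 114 and 65.0 CPM in Hep_LPCs and 23.7 and 26.6 CPM in Bec_LPCs. Bec_LPCs lay below both other groups, by -1.84 ± 0.29 against Hep_LPCs (adjusted p = 0.00919) and -1.24 ± 0.29 against NPC_LPCs (adjusted p = 0.0481, edgeR for both). Chaf1a, the large subunit, was at 61.7 and 86.6, 124 and 84.2, and 34.6 and 35.1 CPM (-1.58 ± 0.27 from Hep_LPCs to Bec_LPCs, adjusted p = 0.0109), but 52.5% of its exonic bases lie inside Ubxn6 on the other strand. Uhrf1, which guides DNA methylation onto newly made strands, was at 49.3 and 116, 149 and 115, and 54.6 and 59.1 CPM. The NPC_LPCs replicates of Uhrf1 spanned the range from below Bec_LPCs to the lower Hep_LPCs value, and it was not called by edgeR (adjusted p = 0.0629 against Hep_LPCs) but was by DESeq2 in that comparison.

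Genes of S phase entry and repair gave 0 calls of 4 in each comparison by edgeR, with 3 of 4 lower at an unadjusted p under 0.05 between Bec_LPCs and Hep_LPCs. DESeq2 called 3 of them, Brca1, Ccne1 and Ccne2, in that comparison and limma-voom none, while against NPC_LPCs both tools called E2f1 lower. Ccne1, cyclin E1, which drives entry into S phase, was at 27.1 and 40.3, 64.6 and 31.3, and 19.0 and 24.1 CPM, so Hep_LPCs replicate 2 lay inside the range of NPC_LPCs. Brca1, a homologous recombination factor made in S phase, was at 34.3 and 58.9, 71.0 and 46.5, and 26.6 and 32.8 CPM, with the same overlap. E2f1, the activator of many genes of this set, differed in pattern from them: 51.5 and 49.5 CPM in NPC_LPCs, 44.6 and 28.9 CPM in Hep_LPCs and 24.5 and 26.4 CPM in Bec_LPCs. It was the 1 member with both NPC_LPCs libraries above both Hep_LPCs libraries (-0.48 ± 0.30, adjusted p = 0.398 by edgeR).

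Within complexes, levels were compared per length with the FPKM values that the authors deposited for NPC_LPCs and Hep_LPCs. The MCM ring genes lay close to each other, the highest of the 6 being 1.86 to 2.98 times the lowest in each library. Mcm7 was highest in all 4 libraries (24.1, 40.9, 63.9 and 64.6 FPKM), and the lowest was Mcm5 in NPC_LPCs (10.2 and 20.4 FPKM) and Mcm6 in Hep_LPCs (34.3 and 21.7 FPKM). The GINS genes were uneven, with Gins3 lowest in all 4 libraries at 1.51 to 3.25 FPKM and a highest-to-lowest ratio of 4.87 to 14.6. Among polymerase alpha and primase genes Prim1 was highest in each library, at 11.6 and 14.0 FPKM in NPC_LPCs and 35.2 and 24.1 FPKM in Hep_LPCs. The clamp loader genes kept 1 order in all 4 libraries, Rfc2 above Rfc5, Rfc3 and Rfc4. Rrm2 was above Rrm1 in each library, by 1.78 and 1.68 times in NPC_LPCs and 2.82 and 3.94 times in Hep_LPCs. Over all 43 genes, Pcna in NPC_LPCs replicate 1 (86.4 FPKM) and Rrm2 in the other 3 libraries (116 to 240 FPKM) were highest, and the lowest were Orc1 and, in Hep_LPCs replicate 2, Gins3.

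**Figure D5:**
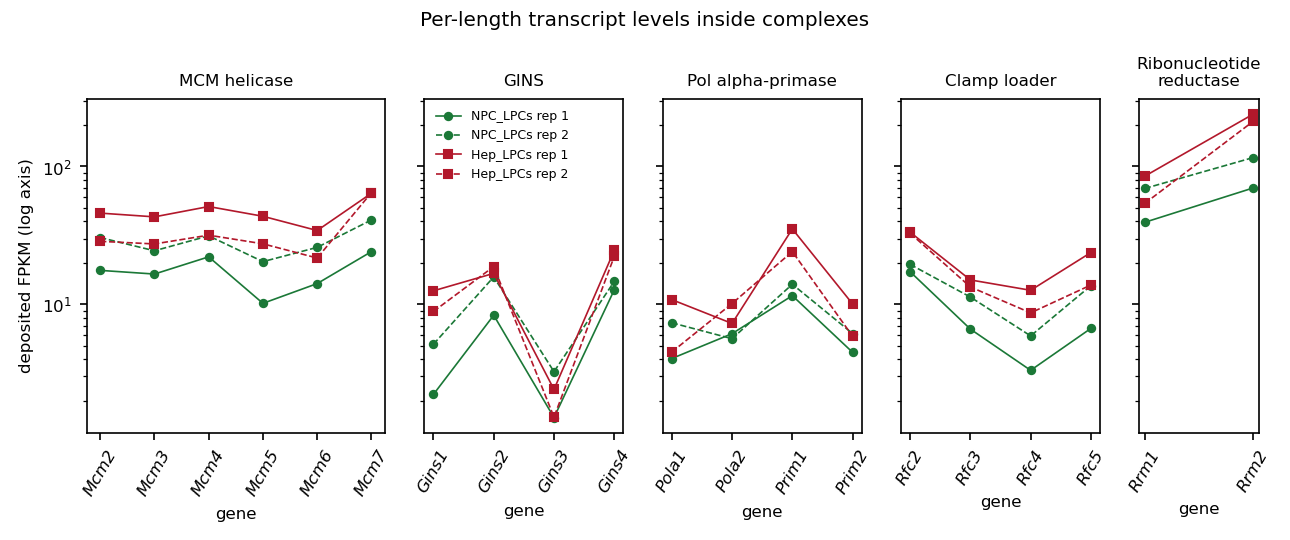
The vertical axis is the deposited FPKM on a log scale and the horizontal axis the genes of each complex, with a line for each NPC_LPCs (green) and Hep_LPCs (red) library. The MCM lines are nearly flat with Mcm7 at the right end highest, the GINS lines dip at Gins3, and the clamp loader lines keep the same order of genes.

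The other genes of replication and its control, 70 in 4 lists, gave 25 called lower and 4 higher in Bec_LPCs against Hep_LPCs by edgeR. Of all genes, 17.2% were called lower and 16.1% higher there. Against NPC_LPCs 4 were called lower and 4 higher, near the shares of all genes, 6.44% and 4.89%. Between Hep_LPCs and NPC_LPCs 0 were called. At an unadjusted p under 0.05 by edgeR, 11 were higher and 1 lower in Hep_LPCs, while 10.5% of all genes were higher. Of the 13 origin firing and licensing genes 6 were called lower in Bec_LPCs than in Hep_LPCs, and 11 of 13 values were below 0. Mtbp, which works with Treslin in firing origins, was at 26.6 and 29.0 CPM in NPC_LPCs, 102 and 85.6 CPM in Hep_LPCs and 17.8 and 18.5 CPM in Bec_LPCs (-2.37 ± 0.18, adjusted p = 0.00165 by edgeR). Recql4, a helicase of replication initiation, changed by -2.32 ± 0.29, and Dbf4, the activator of the Cdc7 kinase, by -1.45 ± 0.21. Of 18 fork and polymerase genes 5 were called lower, among them Timeless, of the fork protection complex (-1.97 ± 0.18), and Pold3, a polymerase delta subunit (-1.71 ± 0.31). Chtf8, at 0.971 and 0.514 CPM in Bec_LPCs and 115 to 168 CPM elsewhere, lies wholly inside other annotated exons, and its counts are uncertain as for Fen1. Of 15 genes of nucleotides, histones and chromatin 6 were called lower, and all 15 log2 fold changes were below 0. Hells, a chromatin remodeler, was at 92.4 and 87.99, 264 and 186, and 52.2 and 59.8 CPM (-2.01 ± 0.22, adjusted p = 0.00381 by edgeR). Nasp, a histone chaperone, changed by -1.53 ± 0.16 (adjusted p = 0.00327 by edgeR).

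S phase control genes were called in both directions in Bec_LPCs, where 16.1% of all genes were called higher than in Hep_LPCs and 4.89% higher than in NPC_LPCs. Called higher than in each other group were 4 of 24, which against Hep_LPCs is near the 16.1% of all genes. These were the inhibitors Cdkn2a and Cdkn2b, which block the cyclin D kinases, and Ccnd2 and Cdk6, a D cyclin and its kinase. Cdkn2a (chromosome 4, 89274471 to 89294653), which encodes p16 and p19Arf, was at 34.1 and 37.1 CPM in NPC_LPCs, 58.9 and 65.7 CPM in Hep_LPCs and 114 and 111 CPM in Bec_LPCs (0.85 ± 0.16 against Hep_LPCs and 1.66 ± 0.16 against NPC_LPCs, adjusted p = 0.0130 and 0.00511 by edgeR). Ccnd2 was at 1116 and 1038, 733 and 1001, and 2572 and 2443 CPM, above both other groups in both Bec_LPCs libraries. The change was 1.53 ± 0.21 against Hep_LPCs and 1.22 ± 0.21 against NPC_LPCs. Called lower than in Hep_LPCs were 8 of 24, where 17.2% of all genes were. Called lower than in NPC_LPCs were 2 of 24, E2f4 and Cdkn1a, near the 6.44% of all genes. The 8 include another D cyclin gene, Ccnd1, at 1785 and 1766 CPM in Bec_LPCs against 2940.2 and 2545 CPM in Hep_LPCs (-0.63 ± 0.17, adjusted p = 0.0368 by edgeR). Another of the 8 is the inhibitor gene Cdkn1c, at 9 and 3 reads in Bec_LPCs against 33 and 48 in Hep_LPCs. Of its exonic bases 30.7% lie inside the antisense gene Gm44732, so its counts are uncertain as for Fen1. E2f4, a mostly repressive E2F of resting cells, was lower in Bec_LPCs at 49.9 and 54.6 CPM. Its levels were 117 and 127 CPM in NPC_LPCs and 156 and 132 CPM in Hep_LPCs. The change was -1.46 ± 0.17 against Hep_LPCs and -1.22 ± 0.17 against NPC_LPCs. Cdkn1a, the p53 target p21, was also lower, at 395 and 392 CPM against 733 to 1094 CPM in the other 4 libraries (-1.33 ± 0.20 against Hep_LPCs, adjusted p = 0.00835). Among the mitosis genes 15 of 20 were called lower in Bec_LPCs than in Hep_LPCs and 4 than in NPC_LPCs, against 17.2% and 6.44% of all genes. All 20 log2 fold changes were below 0 in both comparisons. Nusap1, Kif11 and Ccnb1, genes of the spindle and of cyclin B1, changed by -2.08 ± 0.20, -1.65 ± 0.17 and -1.26 ± 0.15 from Hep_LPCs to Bec_LPCs.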

How the data were processed

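Polyadenylated RNA was sequenced in paired-end mode with a stranded kit, per the labels' protocols. Trimmomatic, HISAT2, Cufflinks, HTSeq and DESeq were used with the build mm10, per the submitters' processing notes; for their versions, roles and strand setting the sources used here give nothing. What the authors deposited is 1 table per library, with whole-number counts per gene symbol and, for NPC_LPCs and Hep_LPCs, also FPKM scaled for length and depth, per the file headers and values. Groups and replicate numbers were taken from the titles.

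Rows without a name (14 in each Bec_LPCs table, at most 0.000191% of counts) and 27 date-like rows in the other tables were left out. Older symbols were updated with RefSeq synonyms (16 and 837 per table), which left 20571 shared genes with 95.3% to 99.4% of the counts. Low genes were removed with filterByExpr and library sizes scaled by TMM. The main test was the two-sided robust quasi-likelihood test of edgeR 4.0.16, run in R 4.3.3 beside limma 3.58.1 and DESeq2 1.42.0. Benjamini-Hochberg adjustment ran over all genes tested, and a gene was called when the adjusted p fell under 0.05. The fit for Hep_LPCs against NPC_LPCs held those 4 libraries; both comparisons of Bec_LPCs came from 1 fit of all 6. Each SE was taken as the absolute fold change over the root of F. The scripts were tested on simulated data with 1 spread for all libraries. That cannot tell how the fit of all 6 does where the groups differ in spread, as they did here. Exonic overlap was taken from GENCODE M21 on mm10, with 1-based coordinates, and near-identical copies of members (at least 95% over 200 bases) with minimap2 2.31-r1302: 5 members, Mcm7, Pcna, Rfc5, Rrm2 and Uhrf1, have one at another locus, so reads may be shared. Counts of reads limit precision by counting error and by the spread of 2 libraries a group.

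The members and lists were chosen with earlier results of these data known. Values in every library were given for up to 10 called members per comparison by smallest adjusted p and, per role, for the member with the highest mean CPM and that with the widest range of group means on the log2 CPM scale. Up to 3 genes of each other list were named by smallest adjusted p, some with fold changes only. A gene that this rule names is not reported here. Other genes given values outside this rule were chosen after their values were seen. The settings tried beside these were library size alone, size factors from DESeq2, its Wald test, limma-voom, all genes unfiltered, a replicate block, symbols as deposited, other sets of libraries, each library left out and limma on log2(FPKM + 1). A limit on exonic overlap of 25% was added after seeing the data.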

Additional observations from a re-analysis of the deposited data

How the results depend on the processing

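The 43 genes gave no call between Hep_LPCs and NPC_LPCs under the other settings run, except 4 called higher with DESeq2's Wald test and 4 with all 6 libraries in the fit. Calls over all genes there were 95, and 449 without a low-count filter, 1499 by DESeq2, 5 by limma-voom, 1274 with all 6 libraries and 9 by limma on log2(FPKM + 1). Leaving out each library in turn gave 0 to 356, the 0 being without Hep_LPCs replicate 1 (2026 genes at an unadjusted p under 0.05 by edgeR) and without replicate 2 (2228). For Bec_LPCs against NPC_LPCs, the 1458 calls became 2897 by DESeq2, 2491 with only the 4 libraries of the pair and 885 within the overlap limit, and ranged from 115 to 2363 with each library left out. The 3 members called lower became 7 by DESeq2, 5 by limma-voom, 6 with the 4 libraries of the pair and 1 within the overlap limit, and ranged from 1 to 6 with each library left out, while their median ranged from -0.96 to -0.17. For Bec_LPCs against Hep_LPCs, leaving out each library gave 489 to 4908 calls over all genes (4293 with all) and 2 to 28 members lower (23 with all), both lowest without a Bec_LPCs library. Where a group is left with 1 library, that library is assumed to vary like the other groups. Library size alone in place of TMM left 2 and 21 members called lower against NPC_LPCs and Hep_LPCs. With a replicate block, 126, 770 and 3390 genes and 0, 2 and 20 members were called in the order of comparisons above; the block lost Chaf1b against NPC_LPCs and Cdc6, Pole and Prim2 against Hep_LPCs. Same-numbered replicates deviated together with correlations of 0.13 (Bec_LPCs and NPC_LPCs), -0.07 (Bec_LPCs and Hep_LPCs) and -0.04 (NPC_LPCs and Hep_LPCs) over 12867 genes. With 2 libraries a group, this cannot settle whether the numbers pair the samples. Between Hep_LPCs and NPC_LPCs, Brca1 turned to -0.024 without NPC_LPCs replicate 1 and -0.014 without Hep_LPCs replicate 1, and Ccne1 to -0.11 without Hep_LPCs replicate 1; with each library left out they ranged up to 0.77 and 0.91. Between Bec_LPCs and NPC_LPCs, Orc6 turned to 0.090 with library size alone and ranged from -0.19 to 0.020 (without Bec_LPCs replicate 1) with each library left out. Rfc4 ranged from -0.12 without NPC_LPCs replicate 1 to 0.66, Mcm7 from -0.64 to 0.095 and Uhrf1 from -1.07 to 0.20, both highest without NPC_LPCs replicate 2. Of the single-gene values recomputed, 254 of 264, 258 of 283 and 239 of 283 kept their direction and their side of the threshold in the 3 comparisons. Between Hep_LPCs and NPC_LPCs no member was called at the start and few settings called any. Staying on that side was thus nearly given, and the first count is no measure of how stable the sizes were. The cause of the changes between settings was not tested.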
